A study of Mus musculus with 3 samples.

Results

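The histone cluster genes are the genes whose names begin with Hist1h, Hist2h, Hist3h or Hist4h, and 58 of the 14811 genes in the deposited table met that rule. By the type letter in their names they comprised 5 H1, 15 H2A, 15 H2B, 10 H3 and 13 H4 genes. They were followed in cycling and in non-cycling T cells taken from mouse tumors. A cell counted as cycling with at least 2 UMIs summed over Mki67, Top2a, Cdk1 and Birc5, none of which is a histone gene. A UMI is a molecular barcode, so a UMI count is a count of captured RNA molecules.

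Mice carried subcutaneous B16F10 melanoma, a transplantable mouse tumor line, and 1 day after implantation received a tail vein injection of purified T cells, either CD8+ cells marked CD45.2 or CD4+ cells marked CD45.1. Tumors were resected on day 11, those of 10 mice were pooled, and 4 populations were sorted: the CD8+ and the CD8+CD4+ cells among those marked CD45.2, and the CD4+ and the CD4+CD8+ cells among those marked CD45.1. The mice are labelled untreated. CD45.1 and CD45.2 are congenic surface markers that tell the transferred CD4 and CD8 T cells apart. The populations carried separate hashtags and were loaded together as 1 droplet library of 5′ gene expression, so no replicate exists and no test between conditions was possible. The deposited annotation gives each of 5564 cells a hashtag number from 1 to 4 and 1 of 4 classes: the Cd4 class (2477 cells), Cd4-identity Tdp (93), the Cd8 class (2681) and Cd8-identity Tdp (313). Tdp is the annotation's own name for a class that the series' title ties to double positive T cells. The sources used here tie no hashtag number to a sorted population, and the numbers are portions of 1 pool rather than replicates. Summed T cell markers (Cd3d, Cd3e, Cd3g, Cd2, Lck and Trac) came to a median of 21 UMIs per cell. Cells held a median of 3869 UMIs (501 to 23946).

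Histones H2A, H2B, H3 and H4 form the core of the nucleosome, and H1 binds the DNA that enters and leaves it. The clustered genes are mostly expressed while DNA is being copied, and their messages typically end in a stem-loop bound by the protein Slbp instead of a poly(A) tail. Replacement variants such as H3f3a and H2afz lie outside the clusters and have polyadenylated messages that are made through the cell cycle and in resting cells. Droplet chemistry primes on poly(A), so the levels below are those of the histone messages that this chemistry captured, and the part of this capture in any level was not tested. Many cluster genes are near-identical copies, so counts could be split or dropped between copies by the authors' counting, and single members are uncertain to that extent.

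The promoters are shown for the 4 members with the most UMIs (Hist1h2ae, Hist1h1b, Hist1h1e and Hist1h4d) and for the pair with the smallest cycling to non-cycling ratio among members with at least 100 UMIs (Hist3h2ba and Hist4h4). The sequences are the 110 bases before the RefSeq gene start on GRCm38.p6, read 5′ to 3′ on the gene's strand, with TATAAA and CCAAT on either strand in capitals. TATAAA is the core of the TATA box, and CCAAT is the element bound by the factor NF-Y.
Hist1h2ae: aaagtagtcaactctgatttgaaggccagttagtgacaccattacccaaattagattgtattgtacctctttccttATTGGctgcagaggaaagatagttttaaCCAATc
Hist1h1b: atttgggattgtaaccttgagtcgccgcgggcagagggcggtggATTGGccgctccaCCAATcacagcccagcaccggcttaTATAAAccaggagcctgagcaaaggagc
Hist1h1e: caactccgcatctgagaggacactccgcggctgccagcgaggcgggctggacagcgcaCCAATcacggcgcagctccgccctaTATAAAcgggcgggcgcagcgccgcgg
Hist1h4d: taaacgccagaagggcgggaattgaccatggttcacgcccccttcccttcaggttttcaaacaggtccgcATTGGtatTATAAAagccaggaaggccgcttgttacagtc
Hist3h2ba: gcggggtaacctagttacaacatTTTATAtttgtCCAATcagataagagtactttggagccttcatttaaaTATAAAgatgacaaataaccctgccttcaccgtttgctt
Hist4h4: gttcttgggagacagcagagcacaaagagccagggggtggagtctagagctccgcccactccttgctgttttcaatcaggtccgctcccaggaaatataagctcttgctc

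These windows lie at chr13:23571221-23571330 on the minus strand for Hist1h2ae (RefSeq name H2ac8) and at chr13:21780626-21780735 on the minus strand for Hist1h1b (H1f5). The window of Hist1h1e (H1f4) is chr13:23622559-23622668 on the minus strand, and that of Hist1h4d (H4c4) is chr13:23581458-23581567 on the plus strand. Hist3h2ba (H2bu2) has chr11:58948801-58948910 on the plus strand, and Hist4h4 (H4f16) has chr6:136804432-136804541 on the minus strand. On the gene's strand, the TATAAA nearest to the start began 27, 28 and 32 bases before it in Hist1h1e, Hist1h1b and Hist1h4d, and 39 bases before it in Hist3h2ba. Hist1h2ae and Hist4h4 had no TATAAA on that strand in the 250 bases before their starts, and Hist4h4 had no CCAAT there on either strand.

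Of the 58 members, 57 matched 1 RefSeq gene and 51 of these had a single promoter entry. Hist1h2ap matched 2 genes, H2ac23 and H2ac24. On both strands of the 250 bases before the start, CCAAT stood in 41 of 51 member promoters (80.4%) against 33.8% of all 32851 promoters in the table. By type, CCAAT stood in 3 of 12 promoters for H4, 5 of 5 for H1, 14 of 14 for H2A, 12 of 12 for H2B and 7 of 8 for H3. TATAAA stood in 26 of 51 (51.0%) against 12.4% of all promoters. ATTTGCAT, the octamer bound by Oct-1, stood in 11 of 51 (21.6%) against 1.60% of all promoters, in 6 H2A and 5 H2B genes and in no gene of another type. AAACACA, an element described in H1 promoters, stood in 6 of 51 (11.8%) against 6.25% of all promoters, in 4 of 5 H1 genes and in 2 of the other 46. The 7 head-to-head pairs of an H2A and an H2B gene described below have at most 248 bases between their starts. Their windows of 250 bases thus cover nearly the same sequence, and a site between the starts counts for both genes. The H2A and H2B counts, and those over all members, are therefore not all from separate sequences. None of these motifs contains another, and a match is a description of letters, not of a bound site.

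In all, 27320 histone UMIs were counted, 0.102% of the UMIs in the table. H2A genes gave 39.9% of them (39.3 to 40.4), H1 genes 28.8% (28.3 to 29.4), H4 genes 14.3% (13.9 to 14.7), H2B genes 10.0% (9.68 to 10.4) and H3 genes 6.94% (6.64 to 7.25). A 5′ library tags each molecule once at its start, so these shares compare UMIs without a division by transcript length. Intervals here and below are exact, at 95%, and cover counting error only. Hist1h2ae alone gave 7684 UMIs, and the 4 leading members together gave 58.6% of the histone UMIs (58.0 to 59.2). The Hist1 cluster on chromosome 13 held 47 of the 58 genes and 92.4% of the UMIs. Between 5 and 19 UMIs were counted for 13 members, which are given below as a group, 16 had 20 to 99 and 29 had at least 100.

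Histone messages were concentrated in cycling cells, of which there were 884 of 5564 (15.9%, 14.9 to 16.9). These cells held 27.2% of all UMIs outside T cell receptor and immunoglobulin genes but 83.7% of the histone UMIs (83.2 to 84.1). The summed level, in UMIs per 1000000 of the group's UMIs outside receptor genes (CPM), was 3146 in cycling cells and 230.1 in non-cycling cells, 13.7-fold higher (13.2 to 14.1). Without Hist1h2ae, a choice made after seeing the data, the ratio was 9.76 (9.44 to 10.1). The ratio ran from 10.6 to 17.5 across the 4 hashtag numbers, and it was 10.6 in number 1, 13.3 in number 2, 17.5 in number 3 and 14.7 in number 4. By class it was 9.69 (9.22 to 10.2) in the Cd4 class, 6.13 (4.80 to 7.89) in Cd4-identity Tdp, 17.4 (16.6 to 18.2) in the Cd8 class and 16.6 (14.7 to 18.9) in Cd8-identity Tdp. Cycling cells were deeper, with a median of 7540.5 UMIs against 3616, and with each cell thinned to 2000 UMIs the ratio was 12.0.

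A gene was called higher or lower at a ratio of at least 1.5 either way with an interval that leaves out 1, given at least 20 UMIs over both groups; this is a rule of size and no test. Of the 45 members with that many UMIs, 45 were called higher in cycling cells and 0 lower, where 10.9% of the 11739 genes measured were called higher and 12.8% lower. The UMI minimum favours members that are high in cycling cells, and 18 of the 45 reached it only with cycling cells included. The other 27 had at least 20 UMIs in non-cycling cells alone, and 27 of them were called higher. The median ratio of the 45 was 10.3, against 0.933 over all genes measured. Within the classes, 35 of 37 measured members were called higher in cycling cells in the Cd4 class (where 12.5% of all genes were called higher and 11.0% lower), 4 of 4 in Cd4-identity Tdp (7.91% and 4.25%), 38 of 38 in the Cd8 class (11.2% and 13.4%) and 26 of 26 in Cd8-identity Tdp (11.0% and 8.04%), and none lower in any class. Many of these members passed the UMI minimum only through cycling cells, where they were high. With at least 20 UMIs in non-cycling cells alone, 19 of 20 were called higher in the Cd4 class, 21 of 21 in the Cd8 class and 3 of 3 in Cd8-identity Tdp, and 0 members could be called in Cd4-identity Tdp. The 13 members with fewer UMIs had 89 UMIs in cycling and 44 in non-cycling cells together, with more UMIs in cycling cells for 9 of them.

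**Figure D1:**
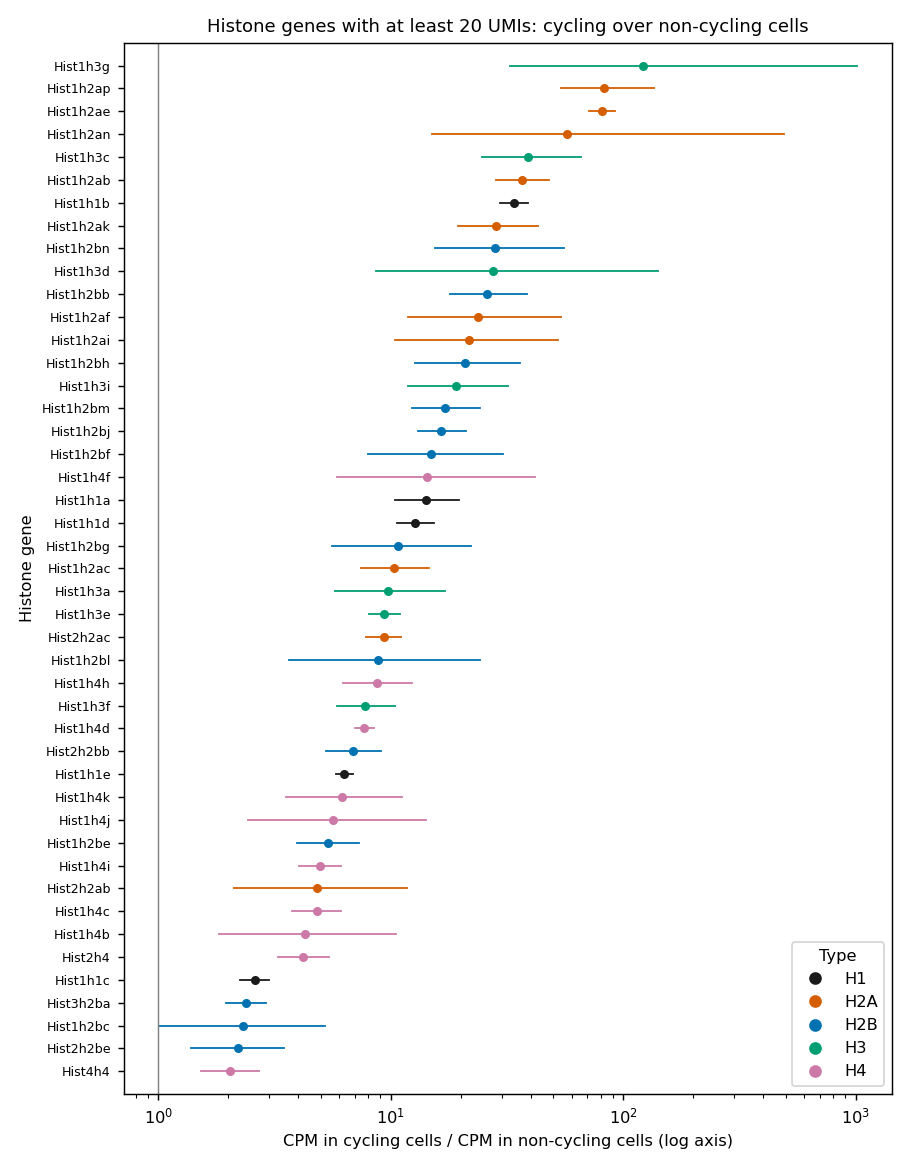
Ratio of CPM in cycling cells to CPM in non-cycling cells for the 45 histone genes with at least 20 UMIs, on a log axis, with exact 95% intervals of counting error and colors for the histone type. All points lie to the right of 1, from Hist4h4 at 2.03 to Hist1h3g at 122, with most H4 genes in the lower part.

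The size of the difference varied widely within each type. Among the 45, 14 genes exceeded 20-fold, 26 lay between 3-fold and 20-fold and 5 lay under 3-fold. The median ratio was 26.1 for H2A genes, 19.0 for H3, 12.7 for H1, 10.7 for H2B and 5.29 for H4. These counts and medians include the 18 members that reached the UMI minimum only with cycling cells, and the order of the types depends in part on them. Of the H3 genes, only Hist1h3e, Hist1h3f and Hist1h3i had at least 20 UMIs in non-cycling cells alone, with ratios of 9.38, 7.77 and 19.0.

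H2A genes, whose products pair with H2B in the nucleosome core, held the member with the highest level. Hist1h2ae (chr13:23570663-23571220) stood at 1024 CPM (1001 to 1048) in cycling and 12.7 CPM (11.1 to 14.4) in non-cycling cells, 80.8-fold higher (71.2 to 92.1). It had a UMI in 60.0% of cycling and 4.85% of non-cycling cells, and in 48.1% and 2.66% after thinning to 2000 UMIs. Hist1h2ap reached 83.0-fold (53.8 to 135) and Hist1h2ab 36.6-fold (28.3 to 48.1). Hist2h2ac, of the Hist2 cluster on chromosome 3, lay lower at 9.33-fold (7.85 to 11.1).

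H1 genes encode the linker histones, and their 5 members spread from 2.59-fold to 33.8-fold. Hist1h1b stood at 392 CPM (378 to 407) in cycling and 11.6 CPM (10.1 to 13.2) in non-cycling cells, 33.8-fold higher (29.5 to 38.9). Hist1h1a and Hist1h1d were 14.1-fold (10.4 to 19.7) and 12.7-fold (10.6 to 15.3) higher. Hist1h1e stood at 282 CPM (269.6 to 294) in cycling cells, below Hist1h1b, and at 44.7 CPM (41.7 to 47.7) in non-cycling cells, the highest level of any member there, for a ratio of 6.31 (5.82 to 6.84). Hist1h1c had 53.0 CPM (47.8 to 58.6) and 20.5 CPM (18.5 to 22.6), a ratio of 2.59 (2.25 to 2.99).

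H2B genes ran from 2.20-fold to 28.1-fold. Hist1h2bj had the most UMIs among them and stood at 70.8 CPM (64.8 to 77.2) in cycling and 4.28 CPM (3.41 to 5.30) in non-cycling cells, 16.5-fold higher (13.1 to 21.1). Hist1h2bn reached 28.1-fold (15.5 to 55.8) and Hist1h2bb 26.0-fold (18.0 to 38.6). Of the 5 members under 3-fold, 3 were H2B genes: Hist3h2ba at 2.39 (1.96 to 2.91), Hist1h2bc at 2.32 (1.01 to 5.22) and Hist2h2be at 2.20 (1.38 to 3.47).

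H3 genes gave few UMIs, led by Hist1h3e with 938. Hist1h3e was 9.38-fold higher in cycling cells (8.03 to 11.0), Hist1h3c 39.1-fold (24.6 to 65.9) and Hist1h3i 19.0-fold (11.8 to 32.0). Hist1h3g had the highest ratio of any member, 122 (32.7 to 1019), on 91 UMIs in cycling and 2 in non-cycling cells. H4 genes stayed at or below 14.3-fold. Hist1h4d stood at 240.0 CPM (229 to 252) in cycling and 31.2 CPM (28.7 to 33.8) in non-cycling cells, 7.70-fold higher (7.02 to 8.46), and Hist4h4 at 11.8 CPM and 5.82 CPM, 2.03-fold higher (1.52 to 2.72).

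Neighbouring genes could have very different levels. Among members with a promoter entry, 7 pairs of an H2A and an H2B gene on chromosome 13 lie head to head with 163 to 248 bases between their starts. The 5 members without a promoter entry, such as Hist1h2bc, had no strand to use and were not considered. Hist1h2ae had 7684 UMIs and its partner Hist1h2bg 60, while Hist1h2bj had 597 and its partner Hist1h2ag 8. Hist1h2ak and Hist1h2bn were closer, at 337 and 138 UMIs, with ratios of 28.4 and 28.1. Among core histone genes, 7 have an annotated span over 600 bases, such as Hist1h2be, Hist1h3e, Hist2h2be and Hist1h2bc. The 5 of these that were measured had a median ratio of 5.34, against 12.5 for the 34 measured genes with shorter spans. Both medians include members that reached the UMI minimum only with cycling cells, Hist1h2bc among the longer and many among the shorter. That inclusion limits the comparison.

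The make-up of histone UMIs differed between the 2 states. In cycling cells Hist1h2ae led with 32.5% of histone UMIs (31.9 to 33.2), followed by Hist1h1b with 12.5% (12.0 to 12.9) and Hist1h1e with 8.95% (8.59 to 9.33). In non-cycling cells Hist1h1e led with 19.4% (18.3 to 20.6), followed by Hist1h4d with 13.5% (12.6 to 14.6) and Hist1h1c with 8.89% (8.07 to 9.76), and Hist1h2ae held 5.51% (4.86 to 6.22). By type, H2A made up 44.9% in cycling and 14.0% in non-cycling cells, H1 27.1% and 37.6%, and H4 12.0% and 26.4%.

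**Figure D2:**
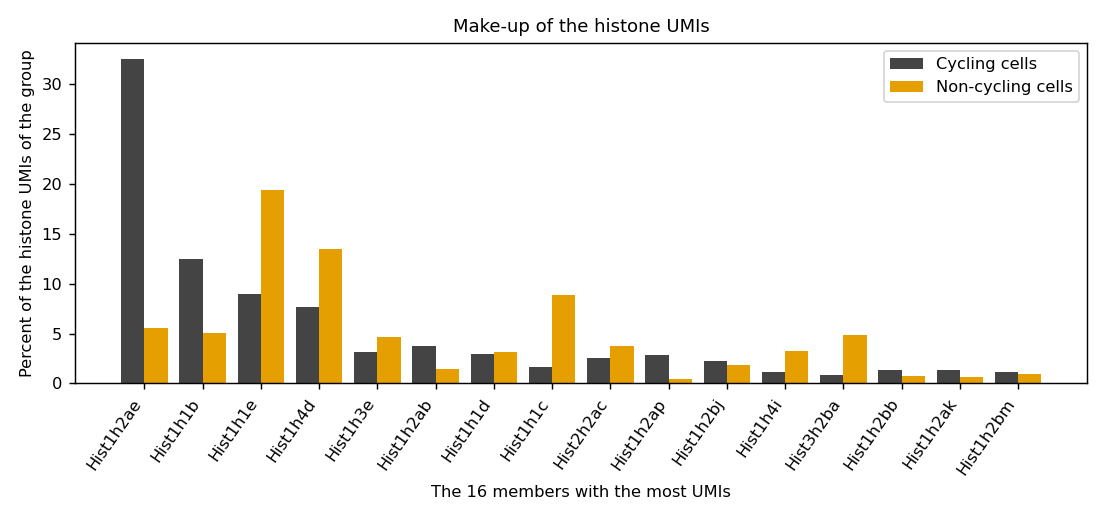
Percent of the histone UMIs of cycling cells (dark bars) and of non-cycling cells (orange bars) held by the 16 histone genes with the most UMIs. Hist1h2ae holds 32.5% in cycling and 5.51% in non-cycling cells, and Hist1h1e 8.95% and 19.4%.

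Cycling cells were far from uniform. They had a median of 11 histone UMIs, an interquartile range of 2 to 44.2 and a highest value of 191. At least 20 histone UMIs were present in 43.0% of them (39.7 to 46.3), and 5 or fewer in 41.6% (38.4 to 45.0). No non-cycling cell of 4680 reached 20, which by 3 counts of the total allows a share of up to 0.0641% (the exact 95% limit is 0.0788%), and the highest had 11. The 278 cells with the most histone UMIs, 5% of all cells, held 65.2% of the histone UMIs (64.7 to 65.8), and all 278 were cycling.

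Cycling cells were then ordered by S phase share, the UMIs of 28 DNA replication genes (such as Pcna and Mcm2) over those plus the UMIs of 25 mitosis genes (such as Ccnb1 and Plk1). The order is a range of a score, with no cell types in it. In all, 750 cells with at least 10 UMIs summed over both lists entered it while 134 did not. Cut into 5 equal groups of 150, from the lowest S phase share to the highest, the summed histone level was 2299.9, 4477, 4636, 4134 and 1166 CPM. The level was thus high in the 3 middle groups, lower in the first and lowest in the fifth. Macrophage and monocyte markers stood at 265, 1388, 658, 356 and 42.8 CPM in the same groups, and so were also highest in a middle group and lowest in the fifth. Without the 10 to 17 cells per group with at least 2 UMIs of macrophage, B cell or melanoma markers, the histone level was 2333, 4877, 5096, 4240.0 and 1221 CPM. The median UMI count per cell was 7441, 8092, 8199.5, 9052 and 7608 in the same order.

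**Figure D3:**
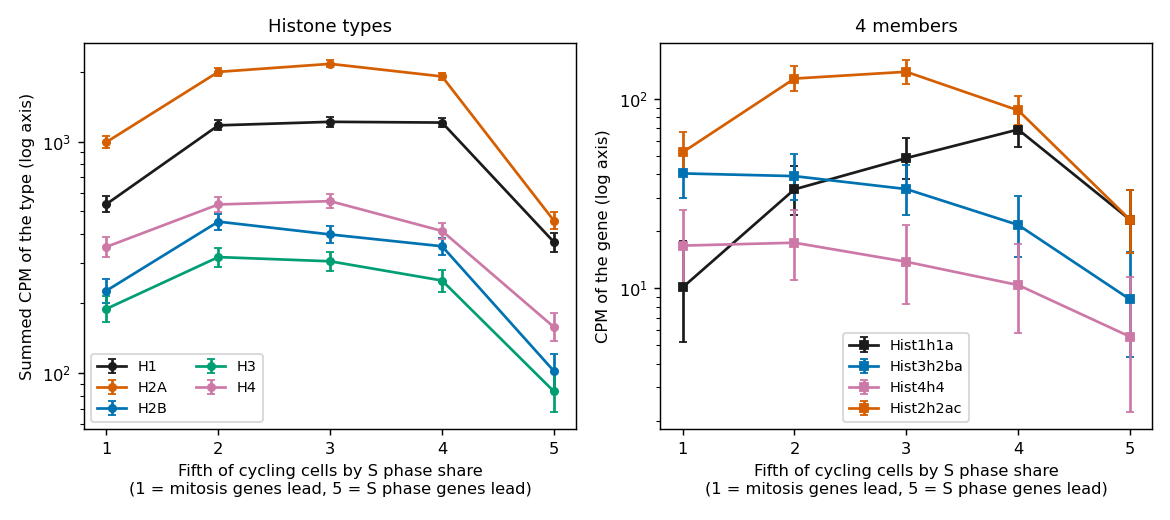
Level in CPM (log axes) across 5 groups of 150 cycling cells ordered from low to high S phase share, for the 5 histone types (left) and 4 single genes (right), with exact 95% Poisson intervals. Every type is lowest in the fifth group, and Hist1h1a is highest in the fourth while Hist3h2ba is at 40.4 and 39.1 CPM in the first and second.

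Members kept much the same course. Of 29 with at least 100 UMIs, 17 were highest in the second group, 10 in the third, 1 in the fourth, 1 in the first and 0 in the fifth. Hist1h2ae went through 699, 1401, 1564, 1452 and 338 CPM, and Hist1h1b through 213, 521, 590, 586 and 167 CPM. The exceptions were Hist1h1a, with 10.1, 33.3, 48.7, 68.9 and 23.0 CPM, and Hist3h2ba, with 40.4, 39.1, 33.4, 21.6 and 8.73 CPM. Hist1h1a was thus at its highest with the S phase share above the middle. Hist3h2ba did not differ between the first group (29.8 to 53.6 CPM) and the second (29.4 to 51.0 CPM) beyond counting error. That was not particular to it, since Hist4h4 (16.8 and 17.4 CPM) and Hist1h3i (20.2 and 20.3 CPM), among others, were also level there.

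Cut into 3 groups of 250, the level was 3225 CPM (3149 to 3303) at the lowest S phase share, 4777 CPM (4688 to 4867) in the middle and 2227 CPM (2166 to 2289) at the highest. The highest group stood at 0.690 of the lowest (0.665 to 0.716). Of 37 measured members, 20 were called lower and 2 higher in the highest group, where 13.4% of all genes measured were called lower and 9.75% higher. In the group with the lower level alone, 17 of the 20 and 1 of the 2 (Hist1h1a) had at least 20 UMIs. The others passed the UMI minimum through the group where they were high. Hist1h1a was higher, at 41.6 against 15.3 CPM (2.72-fold, 1.81 to 4.21), and so was Hist1h3a, at 14.1 against 6.20 CPM. Among those lower were Hist3h2ba at 9.73 against 40.5 CPM and Hist1h4d at 144 against 287 CPM, while Hist1h1b was level at 327 against 333 CPM. The order of the outer groups depended on how cycling cells were chosen, since the ratio was 0.428 with 1 UMI of the 4 genes, 0.935 with 4 and 1.18 when the choice was made after thinning. The middle group was the highest under each of these 4 choices, at 4777, 4476, 4783 and 5211 CPM in turn for 2 UMIs, 1 UMI, 4 UMIs and the thinned choice.

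Within non-cycling cells the level did not increase with replication genes. Cells with 0, 1 or 2, 3 to 5 and at least 6 UMIs of the 28 replication genes stood at 251 (234 to 268), 232 (222 to 242), 219 (205 to 233) and 217 CPM (200.2 to 235). The 648 cells without a single UMI of the replication, mitosis or 4 cycling genes had 249 CPM (228 to 272), and Hist1h1e led in them too, at 52.0 CPM. Hist1h2ae stood at 15.4 CPM (10.4 to 22.1) there against 12.5 CPM (8.69 to 17.4) with at least 6 replication UMIs. A histone UMI was present in 57.1% of non-cycling and 88.0% of cycling cells, and in 37.6% and 75.2% after thinning to 2000 UMIs. No cell type that should lack histone messages was present to measure free RNA, and its part in the non-cycling level was not tested.

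The classes were compared next, which asks whether histone expression followed CD4 or CD8 identity or the Tdp class. The share of cycling cells was 12.8% (11.5 to 14.2) in the Cd4 class, 22.6% (14.6 to 32.4) in Cd4-identity Tdp, 17.6% (16.2 to 19.1) in the Cd8 class and 23.6% (19.0 to 28.7) in Cd8-identity Tdp. Over all cells the summed histone level was 821, 626, 1139 and 1479 CPM in that order. Tdp cells were deeper, with median totals of 4668 against 3478 UMIs for Cd4 identity and 4981 against 4159 for Cd8 identity.

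**Figure D4:**
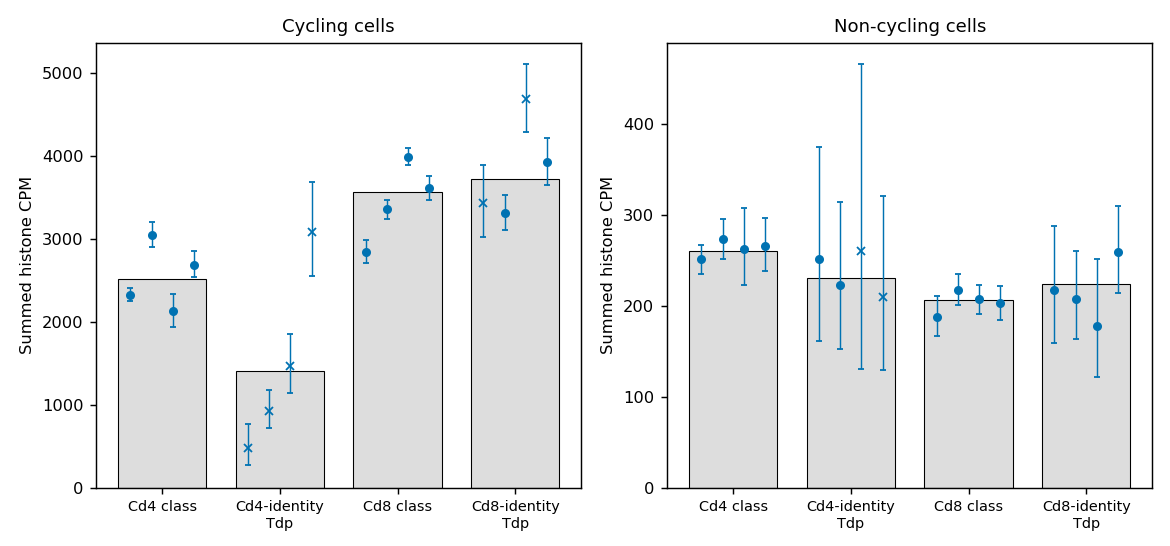
Summed histone CPM by class in cycling (left) and non-cycling cells (right), with bars for the class and points for the 4 hashtag numbers with exact 95% Poisson intervals; crosses are numbers with fewer than 20 cells. In cycling cells the Cd8 class (3573 CPM) and Cd8-identity Tdp (3726) stand above the Cd4 class (2521), and in non-cycling cells the Cd4 class (260.3) stands above the Cd8 class (206).

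Cd8 cells had more histone RNA than Cd4 cells while cycling and less while not cycling. In cycling cells the Cd8 class stood at 3573 CPM and the Cd4 class at 2521 CPM, 1.42-fold higher (1.38 to 1.46). By hashtag number the Cd4 class had 2327, 3054, 2136 and 2691 CPM and the Cd8 class 2843, 3357, 3996 and 3615 CPM. The Cd8 class was thus higher within each number, by 1.22, 1.10, 1.87 and 1.34 times, while the ranges over numbers overlapped. Without Hist1h2ae these ratios were 1.11, 1.02, 1.62 and 1.36, and the interval in number 2 (0.951 to 1.10) then held 1.

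Hist1h2ae, the leading member, showed the same direction in each number. In cycling cells of the Cd4 class it stood at 659, 954, 538 and 812 CPM by hashtag number, and in those of the Cd8 class at 997, 1211, 1404 and 1068 CPM. The values of the classes did not overlap, and the ratio of the summed cells was 1.67 (1.58 to 1.76). Of 40 members measured in cycling cells, 12 were called higher in the Cd8 class and 0 lower, beside 3.92% of all genes called higher and 5.64% lower. Of the 12, 11 had at least 20 UMIs in the Cd4 class alone. The 12 included Hist2h2ac at 98.7 against 58.1 CPM (1.70-fold, 1.41 to 2.07), Hist1h1a at 41.9 against 24.5 CPM (1.71-fold, 1.27 to 2.32) and Hist3h2ba at 32.8 against 16.6 CPM (1.98-fold, 1.39 to 2.86). By type the ratio was 1.59 for H2A (1.52 to 1.66), 1.35 for H1, 1.26 for H4, 1.25 for H3 and 1.23 for H2B. Within the hashtag numbers the H2A ratio was 1.43, 1.22, 2.07 and 1.42, each with an interval above 1, whereas each of the other types had at least 1 number whose interval held 1, such as H1 in number 2 at 0.955 (0.855 to 1.07). The replication genes stood 1.09-fold (1.06 to 1.11) and the mitosis genes 1.02-fold (0.995 to 1.04) apart in the same cells. By S phase share the ratio was 0.927 (0.879 to 0.977) in the lowest of the 3 groups, 1.52 (1.45 to 1.59) in the middle and 1.67 (1.57 to 1.78) in the highest. In the same order these groups held 31.2%, 37.8% and 31.0% of the ordered cells of the Cd8 class. For the Cd4 class the shares were 34.1%, 27.5% and 38.4%. The part of this difference in the class ratio of cycling cells was not tested.

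In non-cycling cells the Cd8 class stood at 206 CPM and the Cd4 class at 260.3 CPM, a ratio of 0.791 (0.744 to 0.841). The Cd4 class had 251, 273, 262 and 266 CPM by hashtag number and the Cd8 class 188, 217, 207 and 203 CPM. These values did not overlap, and the ratio within a number lay between 0.749 and 0.797. Of 25 measured members 4 were called lower in the Cd8 class and 0 higher, beside 7.09% of all genes called lower and 9.38% higher. They were Hist3h2ba, Hist1h1d, Hist4h4 and Hist1h2bm. Of the 4, 3 had at least 20 UMIs in the Cd8 class alone, while Hist1h2bm had 14 there. Over all cells, where the Cd8 class had 1.39 times the Cd4 level (1.35 to 1.42), 8 of 45 members were called higher and 1 lower, beside 8.19% and 6.55% of all genes. In the class with the lower level alone, 7 of the 8 and 0 of the 1 had at least 20 UMIs. Macrophage and monocyte markers summed to 628 CPM in non-cycling cells of the Cd4 class and 1576 CPM in those of the Cd8 class, and non-cycling cells with at least 10 such UMIs had 173 CPM of histones against 238 CPM in cells with none. Without cells with at least 2 UMIs of macrophage, B cell or melanoma markers, the ratio was 0.796 (0.745 to 0.851) in non-cycling and 1.42 (1.38 to 1.47) in cycling cells.

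Hist3h2ba, an H2B gene on chromosome 11, had cycling to non-cycling ratios that lay apart in the Cd4 and Cd8 classes. In the Cd4 class it stood at 16.6 CPM in cycling and 16.9 CPM in non-cycling cells, a ratio of 0.982 (0.682 to 1.39). In the Cd8 class it stood at 32.8 and 7.06 CPM, a ratio of 4.65 (3.44 to 6.34), and in Cd8-identity Tdp at 29.7 and 4.97 CPM, a ratio of 5.96 (2.31 to 18.1). Cd4-identity Tdp had 31.4 CPM (11.5 to 68.4) in cycling and 13.1 CPM (4.26 to 30.6) in non-cycling cells, on 6 and 5 UMIs, too few to place it with either class. In non-cycling cells it was at 17.0, 18.5, 11.9 and 16.1 CPM by hashtag number in the Cd4 class and at 3.93, 8.64, 6.06 and 8.57 CPM in the Cd8 class, without overlap. In cycling cells it was at 17.1, 18.1, 14.1 and 14.2 CPM in the Cd4 class and at 38.1, 21.5, 39.3 and 31.7 CPM in the Cd8 class, again without overlap, although the Cd4 values rest on 25, 10, 3 and 6 UMIs. Hist1h1d had 10.3 CPM in non-cycling Cd4 cells and 5.11 CPM in non-cycling Cd8 cells, with cycling levels of 75.8 and 98.5 CPM. The difference between the ratios of the classes was not tested, since there is 1 library. Non-cycling cells with at least 10 macrophage or monocyte UMIs had 4.44 CPM of Hist3h2ba (2.13 to 8.16), against 11.9 CPM (10.3 to 13.7) in those with none. The part of such cells in the levels of Hist3h2ba by class was not tested.

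Cd8-identity Tdp cells had 1.30 times the histone level of the Cd8 class over all cells (1.25 to 1.35), and little of this was left within a state. The ratio was 1.04 in cycling cells (0.999 to 1.09), 1.09 in non-cycling cells (0.954 to 1.23) and 1.05 with both classes weighted to the cycling share of all cells. Without cells with UMIs of other cell types it was 0.959 (0.917 to 1.00) in cycling cells. Over all cells 6 of 40 measured members were called higher and 0 lower, beside 2.07% of all genes higher and 4.60% lower. In cycling cells 1 of 39 was called higher, Hist1h4c at 46.0 against 28.3 CPM (1.63-fold, 1.05 to 2.45), and 0 lower, beside 2.88% and 3.74% of all genes. In non-cycling cells 0 of 22 were called in either direction, beside 1.72% and 4.04%. By S phase share the ratio in cycling cells was 1.47 (1.37 to 1.57) in the lowest of the 3 groups, 0.923 (0.862 to 0.987) in the middle and 0.627 (0.561 to 0.700) in the highest, on 30, 18 and 22 Cd8-identity Tdp cells. Cycling cells varied widely in histone UMIs, and these intervals leave that spread out. Hist1h2ae stood at 1238 CPM in cycling Cd8-identity Tdp cells and 1226 CPM in cycling cells of the Cd8 class. In the same cells the replication genes stood at 0.840 (0.804 to 0.878) and the mitosis genes at 1.22 (1.17 to 1.26) times the Cd8 class. Cells in which several T cell receptor beta V genes had 2 UMIs or more, a sign of doublets, made up 23.0% of the cycling Cd8-identity Tdp cells and 18.2% of those of the Cd8 class, and without such cells the ratio over all cells was 1.55.

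Cd4-identity Tdp cells had 0.762 times the histone level of the Cd4 class over all cells (0.684 to 0.847), on 358 histone UMIs, with 3 of 38 members called higher and 3 lower, beside 2.20% and 2.92% of all genes. In the class with the lower level alone, 2 of the 3 higher and 3 of the 3 lower had at least 20 UMIs. In cycling cells the ratio was 0.561 (0.495 to 0.634), at 1414 against 2521 CPM, on 21 cells against 317. Macrophage and monocyte markers stood at 5.24 CPM in these cells against 517 CPM in cycling cells of the Cd4 class, and melanoma markers at 5.24 against 29.4 CPM. Without cells with such UMIs the ratio in cycling cells was 0.518 (0.453 to 0.589). Those 21 cells had a median of 4 histone UMIs, and 1 of them held 83 of their 270. Of 34 measured members 6 were called lower (Hist1h1b, Hist1h2bj, Hist1h3e, Hist1h2ae, Hist1h4d and Hist1h1e) and 1 higher (Hist1h2ak), beside 2.31% of all genes called lower and 2.93% higher. Of the 6, 3 had 20 UMIs in Cd4-identity Tdp (Hist1h1b, Hist1h2ae and Hist1h1e), and the others passed the UMI minimum through the Cd4 class, where they were high. Hist1h2ae stood at 314 CPM against 735 CPM, a ratio of 0.428 (0.325 to 0.553). By hashtag number the 21 cells had 474, 928, 1467 and 3079.7 CPM on 4, 8, 5 and 4 cells. In non-cycling cells the ratio was 0.886 (0.708 to 1.10), with 0 of 21 members called higher and 1 lower (Hist1h1d, at 0 UMIs against 83), beside 2.28% and 2.63% of all genes. Hist1h1d passed the UMI minimum through the Cd4 class, where it was high. Cells with the doublet sign made up 10 of these 21 cells against 14.8% of cycling cells in the Cd4 class, and without such cells the ratio over all cells was 0.963. Counted as UMIs per cell without scaling, the ratio over all cells was 1.09.

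Between the Tdp classes, Cd8-identity cells had 2.36 times the level of Cd4-identity cells over all cells (2.12 to 2.65), 2.63 times in cycling cells (2.32 to 3.00) and 0.970 times in non-cycling cells (0.760 to 1.25). Over all cells 11 of 27 members were called higher and 0 lower, beside 3.95% and 3.09% of all genes, and 4 of the 11 had 20 UMIs in Cd4-identity Tdp. By hashtag number the ratio over all cells was 3.28, 3.57 and 1.34 in numbers 1, 2 and 4, with too few cells in number 3. In cycling cells 11 of 25 measured members were called higher and 0 lower, beside 3.11% of all genes higher and 3.07% lower. Of the 11, only 3 (Hist1h2ae, Hist1h1e and Hist1h1b) had 20 UMIs in Cd4-identity Tdp, and the other 8 passed the UMI minimum through the Cd8-identity cells, where they were high. Hist1h2ae stood at 1238 against 314 CPM, 3.94-fold higher (3.03 to 5.21), and Hist1h3e at 144 against 31.4 CPM, 4.58-fold higher (2.03 to 12.8). The Cd4-identity side again rests on 21 cells.

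Genes that work with the histones were taken from lists. Of 18 genes of histone mRNA processing and transcription, 10 were called higher in cycling cells and 0 lower, beside 10.9% of all genes measured called higher and 12.8% lower. Slbp, the stem-loop binding protein, was 3.04-fold higher (2.86 to 3.22), Npat, the activator of cluster transcription, 1.57-fold (1.28 to 1.92) and the cyclin gene Ccne2 10.5-fold (6.94 to 16.4). Lsm10, a part of the U7 particle that cuts histone messages, had a ratio of 0.774 (0.663 to 0.901). Across the S phase share Slbp stood at 509 CPM in the highest and 116 CPM in the lowest of the 3 groups, 4.37-fold higher (3.81 to 5.04).

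Of 22 histone chaperone genes, which carry histones to and from DNA, 14 were called higher in cycling cells and 1 lower, beside 10.9% and 12.8% of all genes. Asf1b was 24.3-fold higher (20.9 to 28.4) and Chaf1a, a subunit of the assembly factor CAF-1, 9.29-fold (7.55 to 11.5). The importin gene Ipo4 was lower, with a ratio of 0.568 (0.380 to 0.826).

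Replacement variants had smaller ratios as a group, with a median of 1.34. Of 9 measured, 4 were called higher in cycling cells: H2afx, the variant phosphorylated at DNA breaks, 13.5-fold (12.6 to 14.6), Cenpa, the centromeric H3, 9.43-fold (8.78 to 10.1), H2afv 4.42-fold (4.23 to 4.62) and H2afz 3.45-fold (3.37 to 3.53). H3f3a and H3f3b, which encode H3.3, had ratios of 1.19 (1.16 to 1.22) and 1.19 (1.16 to 1.21). H2afx and Cenpa stood at 229 and 102 CPM at the highest S phase share and at 1095 and 1060.3 CPM at the lowest. All 28 replication genes and all 25 mitosis genes were called higher in cycling cells, with median ratios of 7.03 and 48.5. Beside these counts and those of the variants, 10.9% of all genes measured were called higher.

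Summed markers of macrophages and monocytes, dendritic cells and NK cells were lower in cycling than in non-cycling cells, and those of melanoma were higher. B cell markers, with 1 of 4 genes measured, stood at 16.5 and 16.8 CPM, a ratio of 0.981 (0.789 to 1.21). Macrophage genes were called higher in cycling cells for 2 of 10 and lower for 5, dendritic cell genes lower for 3 of 7, NK cell genes lower for 3 of 6 and melanoma genes higher for 1 of 4. Over all genes measured, 10.9% were called higher and 12.8% lower. Summed macrophage and monocyte markers stood at 554 CPM in cycling and 1102 CPM in non-cycling cells, dendritic cell markers at 48.9 and 117 CPM, NK cell markers at 52.2 and 63.7 CPM, and melanoma markers at 13.6 and 10.1 CPM. Without cells holding at least 2 UMIs of macrophage, B cell or melanoma markers the cycling to non-cycling ratio was 14.0. The doublet sign was present in 18.1% of cycling cells (15.6 to 20.8) and 10.9% of non-cycling cells (9.98 to 11.8), and without these cells the ratio was 13.8. Any further part of these cells in the results was not tested.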

How the data were processed

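A pool of 4 hashtagged T cell populations gave 1 droplet library of 5′ gene expression. The deposited table holds raw UMI counts per gene and cell. Per the submitters' processing notes, Cell Ranger 3.1.0, Seurat 3.2.3 and mm10 were used, without their roles, and per the labels' protocols 6200 cells were taken into library preparation. The filtering of cells, any removal of doublets and the calling of classes are not given in the sources used here. Libraries of hashtags and T cell receptors and the deposited antibody counts were not analysed here.

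Counts were summed over cells and given as CPM after leaving out 118 receptor and immunoglobulin genes (0.331% of UMIs), with exact Poisson intervals for levels, exact conditional binomial intervals for ratios and exact (Clopper-Pearson) intervals for shares (numpy 2.4.6, scipy 1.17.1). No pseudocount was used. TMM factors came from edgeR 4.0.16. The calculation was tested on simulated data. Members with at least 100 UMIs could be named, those with 20 to 99 as exceptions, and from other lists the 3 highest and 3 lowest ratios and Slbp, Npat, H2afz, H2afx, H3f3a and H3f3b. The members and lists were chosen with earlier results of these data known. No doublets were removed; cells with 2 beta V genes served as their sign. Thinning drew 2000 UMIs per cell and left out 421 shallower cells. Alternatives were other scalings, cell filters, cycling choices and leaving out each hashtag number; leaving out Hist1h2ae was added, as was dropping cells that hold other types' marker UMIs within the S phase groups and within each state, after seeing the data. Promoters are from RefSeq, GRCm38.p6.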

Additional observations from a re-analysis of the deposited data

How the results depend on the processing

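The number of histone genes called higher in cycling cells, 45 of 45 measured beside 10.9% of all genes, lay between 33 and 54 under 17 alternatives. It followed the number of members measured, with 49, 37 and 54 at a minimum of 10, 50 and no UMIs and 33 after thinning. For the mean of per-cell CPM the call used the ratio without an interval. The share of all genes called was not computed under the alternatives. The intervals of the other values cover counting error only, and many alternatives moved the values beyond them. Some alternatives change the measure itself, such as UMIs per cell, or the cells compared, such as other cycling choices. Cycling against non-cycling cells (13.7) was 14.4 with TMM scaling, 27.1 as UMIs per cell, 11.3 as the mean of per-cell CPM, 12.0 after thinning to 2000 UMIs, 9.40 and 15.9 with cycling set at 1 or 4 UMIs, 9.76 without Hist1h2ae, and 12.6 to 15.0 without a hashtag sample (15.0 without 1, 12.6 without 3). The highest against the lowest of the 3 groups by S phase share (0.690) was 0.737 with TMM scaling, 0.744 as UMIs per cell, 0.731 without cells with 2 Trbv genes, 0.428 and 0.935 with cycling set at 1 or 4 UMIs, and 0.649, 0.661 and 0.731 without hashtag samples 3, 4 and 2. It reversed to 1.18 with cycling set after thinning, where the cause was not tested.

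Cd8-identity Tdp against the Cd8 class (1.30) was 1.55 as UMIs per cell, 1.22 after thinning, 1.55 without cells with 2 Trbv genes, 1.21 without cells with UMIs of other cell types, 1.19 and 1.40 without hashtag samples 2 and 3, 1.04 in cycling cells, 1.09 in non-cycling cells and 1.05 at an equal cycling share. Cd4-identity Tdp against the Cd4 class (0.762) was 0.931 as the mean of per-cell CPM, 0.936 after thinning, 0.963 without cells with 2 Trbv genes, 0.871, 0.881 and 0.624 without hashtag samples 1, 2 and 4, 0.561 in cycling cells, 0.886 in non-cycling cells and 0.631 at an equal cycling share. It was 1.09 as UMIs per cell, on the other side of 1, where the cause was not tested.

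The Cd8 class against the Cd4 class (1.39) was 1.62 as UMIs per cell, 1.49 as the mean of per-cell CPM, 1.51 after thinning, 1.51 without cells with UMIs of other cell types, 1.43, 1.43, 1.21 and 1.45 without hashtag samples 1 to 4, 1.28 at an equal cycling share and 1.26 without Hist1h2ae. It reversed to 0.791 in non-cycling cells alone. Cd8-identity against Cd4-identity Tdp (2.36) was 2.02 as the mean of per-cell CPM, 1.97 after thinning, 1.92 and 3.07 without hashtag samples 2 and 4 and 1.99 without Hist1h2ae, and it was 0.970 in non-cycling cells alone, with an interval (0.760 to 1.25) that holds 1. The cause of these changes was not tested.

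No paired analysis was possible because there is 1 gene expression library and the hashtag numbers are portions of its pool. Intervals cover counting error and leave out differences between cells, mice, sorts and libraries. Cd4-identity Tdp, with 93 cells, is the least precise class. Members under 20 UMIs could not be described singly, and near-identical copies limit every member.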
